A study of Mus musculus with 37 samples.

Results

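The comparison set intact mammary glands of mice given 30 cGy of silicon ions (30 cGy Si) against glands of sham-treated mice, both collected at week 12 after exposure. Its members were the 3 arrays whose titles give 30 cGy Si at week 12 and the 3 whose titles give sham at week 12, 6 of the 37 arrays of the series, and every gene with a single symbol was followed. Silicon ions are heavy charged particles, here at 350 MeV/amu, that ionize densely along their tracks. All mice, sham included, were BALB/c females bought at 3 weeks of age. They had 1 inguinal gland surgically cleared, travelled to the irradiation site at 9 weeks of age and were exposed or sham-exposed at 10 weeks. The opposite gland, left intact, was measured, and week 12 glands were taken after the mice had been moved back. The other groups used here were 10 cGy Si and 100 cGy gamma rays at week 12, and 30 cGy Si and sham at weeks 1 and 4, with 3 arrays each except sham at week 4 with 4. Replicates are separate samples in the labels, with no statement of whether each is its own mouse. The p-values and SE thus reflect only scatter among arrays within groups, part of which could be technical. That scatter was pooled over all 37 arrays and is not the spread of the 6 compared arrays alone.

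The mammary gland is an epithelial tree set in a fat pad, with vessels, fibroblasts, immune cells and, in the inguinal gland, a lymph node. Its adipocytes make fatty acids and sterols through enzymes that the SREBP transcription factors switch on together. Interferons act through receptors, JAK kinases and STAT factors to induce antiviral proteins and GTPases in many cell types. Whole tissue was measured, so fewer cells of a type and less RNA per cell cannot be told apart.

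The defining markers of gland tissue were present in all 6 arrays. Krt8, a luminal keratin, had deposited log2 values of 10.89, 11.13 and 10.91 in 30 cGy Si glands, against 11.45, 11.26 and 9.94 in sham glands. Adipoq, the adipocyte hormone adiponectin, had 11.66, 11.21 and 11.61 in 30 cGy Si glands, against 11.28, 11.25 and 11.53 in sham glands. Sham replicate 3 was thus the lowest array for Krt8 and not for Adipoq. Cd79a, part of the B cell receptor, had 5.54, 4.30 and 5.28 in 30 cGy Si glands, against 1.97, 7.29 and 7.68 in sham glands, so the sham glands lay on both sides of the irradiated ones. Ucp1, the heat-producing protein of brown fat, stayed below the filter on low genes, with 3.53, 3.26 and 3.51 in 30 cGy Si glands, against 3.17, 3.23 and 4.70 in sham glands.

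The sham arrays were less alike than the irradiated ones. Across the 13174 genes tested, each 30 cGy Si array had a mean correlation with the rest of its group between 0.981 and 0.9831, and each sham array one between 0.9598 and 0.9673. Every sham array correlated more with the 30 cGy Si arrays than with its own group, sham replicate 3 the most (0.9786 against 0.9598). The main results are therefore given with all arrays and without sham replicate 3. That array was picked for its likeness to the irradiated ones, so leaving it out tends to widen the differences. Adjusted p-values without it are thus no independent support. It did not stand apart in the series, with a median correlation to all other arrays of 0.9671, against 0.9607 for sham replicate 1.

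No gene passed an adjusted p of 0.05 in the limma fit over all 37 arrays (0 of 13174 tested, 0%), and the smallest adjusted p was 0.437. At an unadjusted p under 0.05, 696 genes differed (5.28%), 374 higher (2.84%) and 322 lower (2.44%) after 30 cGy Si. The groups did not overlap in 504 genes that were higher (3.83%) and 446 that were lower (3.39%), and 6783 genes (51.5%) had a difference above 0. The median difference over all genes was 0.0059 on the log2 scale. Without sham replicate 3, 31 genes passed the adjusted threshold (0.235%), and 1088 were higher (8.26%) and 908 lower (6.89%) at an unadjusted p. Leaving out any other single array of these groups gave 0 genes past the adjusted threshold. The values below are log2 differences ± SE from the all-array fit unless another fit is named, and none of them passed adjustment there. The all-array shares over all genes in this paragraph are the background for each count of list members below.

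The genes of sterol synthesis, the route from acetyl units to cholesterol, lay higher after 30 cGy Si as a group. Of the 21 genes of the list, 18 had a probe set of their own and all 18 passed the filter. Of these, 17 had a difference above 0, 10 were higher and 0 lower at an unadjusted p under 0.05, and 3 did not overlap between groups, all higher. Over all genes tested, 2.84% were higher and 2.44% lower at that p, and 3.83% were higher without overlap. The median difference was 0.49, beside 0.0059 over all genes. It was 0.28 without sham replicate 2, where 2 members were higher, and 0.80 without sham replicate 3, where 14 were. With only the 6 arrays in the fit, 2 members were higher at an unadjusted p.

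Cyp51, the lanosterol demethylase, had log2 values of 7.35, 7.65 and 8.22 in 30 cGy Si glands, against 6.64, 6.17 and 7.33 in sham glands. The groups did not overlap, though sham replicate 3 came close to the lowest irradiated gland. The difference was 1.03 ± 0.23 (limma adjusted p = 0.437), and 1.34 without sham replicate 3 (limma adjusted p = 0.0172). Msmo1, a sterol methyl oxidase that acts later in the pathway than Cyp51, had 8.24, 8.36 and 8.46 in 30 cGy Si glands, against 7.57, 6.32 and 8.11 in sham glands. Again all 3 irradiated glands stood above all 3 sham glands, with a difference of 1.02 ± 0.25 (limma adjusted p = 0.559), and 1.41 without sham replicate 3 (limma adjusted p = 0.0172). Idi1, which isomerises the building block of the pathway, had 8.31, 8.36 and 9.10 in 30 cGy Si glands, against 7.31, 6.86 and 8.90 in sham glands. Here sham replicate 3 lay among the irradiated arrays while the other sham glands lay below them, and the difference was 0.90 ± 0.38. Sqle, the squalene epoxidase, had 7.21, 7.45 and 7.67 in 30 cGy Si glands, against 6.91, 6.14 and 7.36 in sham glands, where sham replicate 3 lay above 1 irradiated gland and the other sham glands below all of them, a difference of 0.64 ± 0.25. Early enzymes of the mevalonate steps differed by 0.55 ± 0.23 (Mvd), 0.67 ± 0.29 (Fdps) and 0.40 ± 0.18 (Mvk). Late enzymes differed by 0.65 ± 0.28 (Nsdhl), 0.58 ± 0.26 (Hsd17b7) and 0.48 ± 0.20 (Dhcr7). Hmgcs1, which feeds the pathway, differed by 0.39 ± 0.26, and Fdx1, an electron carrier, was the 1 member below 0 (−0.12 ± 0.17).

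**Figure D1:**
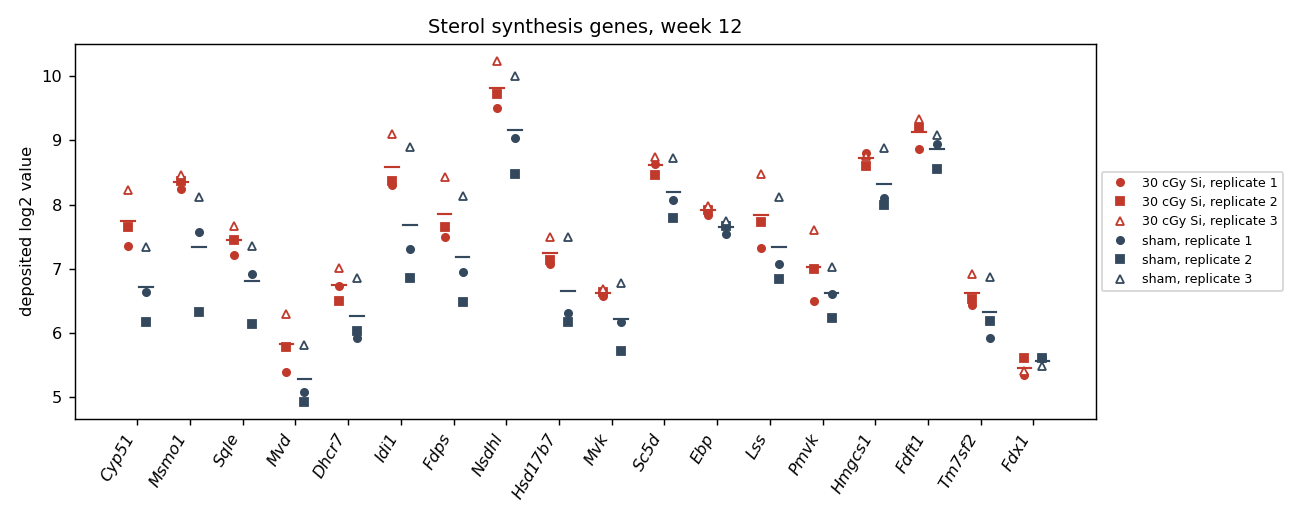
Deposited log2 values of the 18 sterol synthesis genes tested, in order of unadjusted p, in the 3 arrays of 30 cGy Si (red, left of each pair) and of sham (dark, right) at week 12, with a bar at each mean. Sham replicate 3 (open dark triangle) lies near the irradiated arrays for most genes, and Cyp51, Msmo1 and Ebp are the 3 genes whose groups do not overlap.

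Control genes of sterol handling did not share that direction as a group. Of 16 members tested, 8 lay above 0, with 2 higher and 2 lower at an unadjusted p and a median of −0.03. Srebf1, which encodes SREBP-1, had 8.06, 8.59 and 8.79 in 30 cGy Si glands, against 7.94, 7.64 and 8.21 in sham glands (difference 0.55 ± 0.19). Insig1, an SREBP target that holds SREBP back, had 10.42, 10.75 and 11.04 in 30 cGy Si glands, against 10.11, 9.18 and 10.50 in sham glands (difference 0.81 ± 0.36). The cholesterol exporter of lysosomes, Npc1, differed by −0.33 ± 0.11, and Mylip, which marks the LDL receptor for degradation, by −0.35 ± 0.16.

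Fatty acid synthesis genes also lay higher after 30 cGy Si, with wide overlap. Of 26 genes, 23 had a probe set of their own and 22 passed the filter. Of these, 21 lay above 0, 7 were higher and 0 lower at an unadjusted p under 0.05, and the groups separated for 0. Among all genes tested, 2.84% were higher and 2.44% lower at that p, and 3.83% were higher and 3.39% lower without overlap. The median difference was 0.57. It was 0.31 without sham replicate 2, where 1 member was higher at an unadjusted p, and 0.84 without sham replicate 3, where 15 were. The fit on only the 6 arrays gave 1 member higher. Elovl6, a fatty acid elongase, had 10.70, 11.61 and 11.95 in 30 cGy Si glands, against 9.39, 8.46 and 11.59 in sham glands. Sham replicate 3 again stood with the irradiated arrays, and the difference was 1.61 ± 0.69. Acly, which makes cytosolic acetyl-CoA, had 9.54, 10.91 and 11.50 in 30 cGy Si glands, against 9.03, 8.18 and 11.00 in sham glands, a difference of 1.25 ± 0.61. Me1, which supplies NADPH, differed by 1.18 ± 0.51, Acss2 by 1.17 ± 0.53, and Mid1ip1, an activator of acetyl-CoA carboxylase, by 0.60 ± 0.21. The synthase Fasn differed by 0.53 ± 0.30, and the desaturases Scd1 by 0.03 ± 0.11 and Fads2 by −0.12 ± 0.20.

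**Figure D2:**
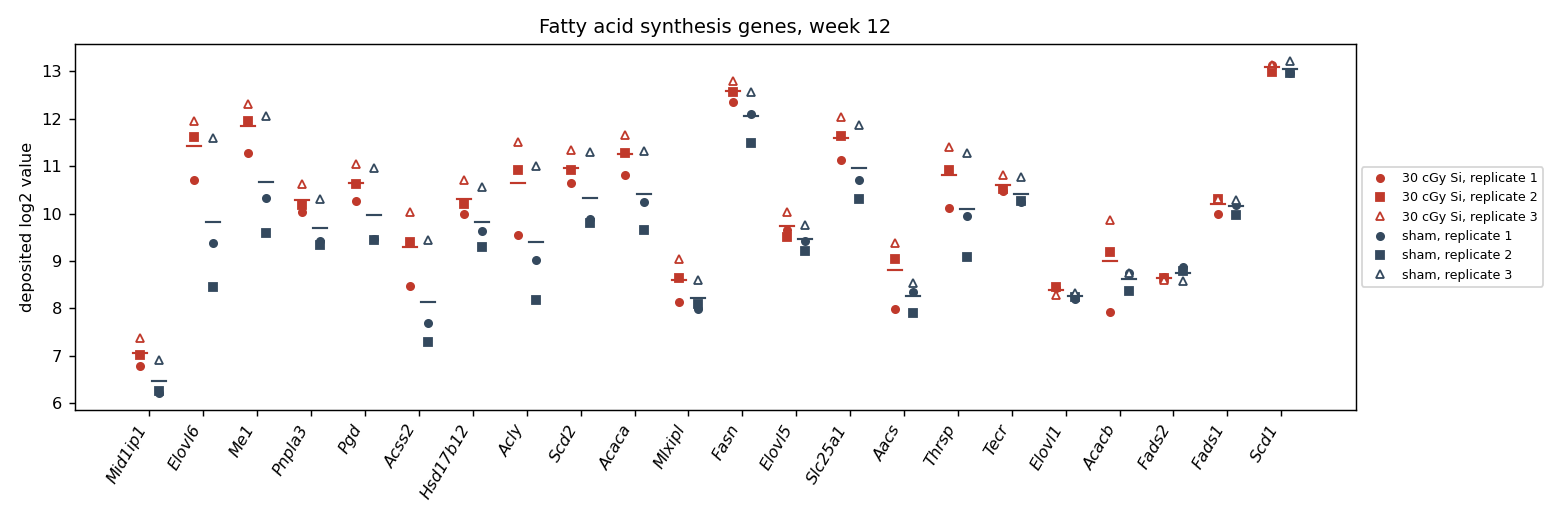
Deposited log2 values of the 22 fatty acid synthesis genes tested, in order of unadjusted p, in the 3 arrays of 30 cGy Si (red, left of each pair) and of sham (dark, right) at week 12, with a bar at each mean. For Elovl6, Me1, Acss2 and Acly, sham replicates 1 and 2 lie below all irradiated arrays while sham replicate 3 lies among them.

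Brown adipocyte genes were high in some of the same arrays, and their part in the result was not tested. The level of a list in an array was taken as the average, over its members, of the log2 value minus that gene's 37-array mean. For sterol synthesis it was 0.44, 0.59 and 0.95 in 30 cGy Si glands, against 0.01, −0.30 and 0.72 in sham glands. For brown adipocyte genes it was 0.25, 0.03 and 0.55 in 30 cGy Si glands, against −0.24, −0.28 and 0.70 in sham glands. In both lists replicate 3 was the highest array of its group. Of the 11 brown adipocyte genes tested, 10 lay above 0 with a median of 0.21, and 0 were higher or lower at an unadjusted p. White adipocyte genes had 8 of 15 members above 0, a median of 0.06, and 0 higher and 1 lower at an unadjusted p. Their level was 0.10, −0.44 and −0.20 in 30 cGy Si glands, against −0.42, −0.32 and 0.08 in sham glands, nearly the same range in both groups. Oxidative phosphorylation genes, subunits of the respiratory chain, had 30 of 32 members above 0, a median of 0.18 and 3 higher at an unadjusted p, among them Ndufv2 (0.38 ± 0.15). Their median was 0.05 without 30 cGy Si replicate 3 and 0.03 without sham replicate 2, but 0.40 when sham replicate 3 was left out. Some further lists lay mostly above 0, beside 51.5% of all genes. Triglyceride synthesis and storage had 16 of 18 members above 0 (median 0.21). Endoplasmic reticulum stress had 17 of 20 (median 0.13), and oxidative stress 19 of 24 (median 0.14). With the array levels of T and NK cell, skeletal muscle, luminal and brown adipocyte genes as covariates, the median was 0.40 for sterol synthesis, 0.38 for fatty acid synthesis and 0.05 for oxidative phosphorylation. These covariates entered the fit together, so it does not separate the part of brown adipocyte genes.

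Interferon-induced genes also lay higher after 30 cGy Si. Of 47 antiviral effectors, 41 had a probe set of their own and 39 passed the filter. Of these, 33 lay above 0, 12 were higher and 1 lower at an unadjusted p under 0.05, and 11 were higher and 1 lower with no overlap between groups. The shares over all genes were 2.84% and 2.44% at that p, and 3.83% and 3.39% without overlap. The median difference was 0.32. It was 0.13 without 30 cGy Si replicate 1 and 0.19 without sham replicate 1, but 0.45 when sham replicate 3 was left out. With only the 6 arrays in the fit, 11 members were higher at an unadjusted p. Of the interferon-induced GTPases, which act on membranes around pathogens, 9 of 18 were measured and tested, all 9 lay above 0, 3 were higher at an unadjusted p and the median was 0.35 (0.55 without sham replicate 3).

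Gbp3, a guanylate-binding GTPase, had log2 values of 7.60, 7.20 and 7.55 in 30 cGy Si glands, against 6.39, 6.30 and 7.05 in sham glands. The groups did not overlap, and the difference was 0.87 ± 0.19 (limma adjusted p = 0.437), and 1.10 without sham replicate 3 (limma adjusted p = 0.0172). Stat2, a factor that carries the type I interferon signal, had 7.76, 7.56 and 7.57 in 30 cGy Si glands, against 7.07, 6.83 and 7.06 in sham glands. For this gene sham replicate 3 lay with the other sham glands, and the difference was 0.64 ± 0.16 (limma adjusted p = 0.559), and 0.68 without sham replicate 3 (limma adjusted p = 0.071). Rtp4, an interferon-induced inhibitor of viral replication, had 8.39, 8.08 and 8.35 in 30 cGy Si glands, against 7.15, 6.98 and 7.999 in sham glands. Its groups did not overlap, with a difference of 0.89 ± 0.25. Ifit3, an antiviral RNA-binding family member, had 8.58, 7.52 and 7.93 in 30 cGy Si glands, against 6.21, 6.95 and 7.57 in sham glands, and the ranges met (difference 1.10 ± 0.38). Oas3, a sensor of double-stranded RNA, had 5.48, 4.70 and 4.56 in 30 cGy Si glands, against 3.13, 4.26 and 4.32 in sham glands (difference 1.01 ± 0.41), with no overlap. Ube2l6, the ISG15-conjugating enzyme, had 6.81, 6.52 and 6.96 in 30 cGy Si glands, against 5.64, 6.14 and 6.44 in sham glands (difference 0.69 ± 0.18), also with no overlap. Ifit1 differed by 0.95 ± 0.31, Parp12 by 0.39 ± 0.13 and Iigp1, an immunity-related GTPase, by 0.90 ± 0.29. Ifitm1, a membrane protein that blocks viral entry, ran the other way, with 5.88, 6.20 and 5.81 in 30 cGy Si glands, against 6.42, 6.79 and 6.42 in sham glands (difference −0.58 ± 0.21).

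**Figure D3:**
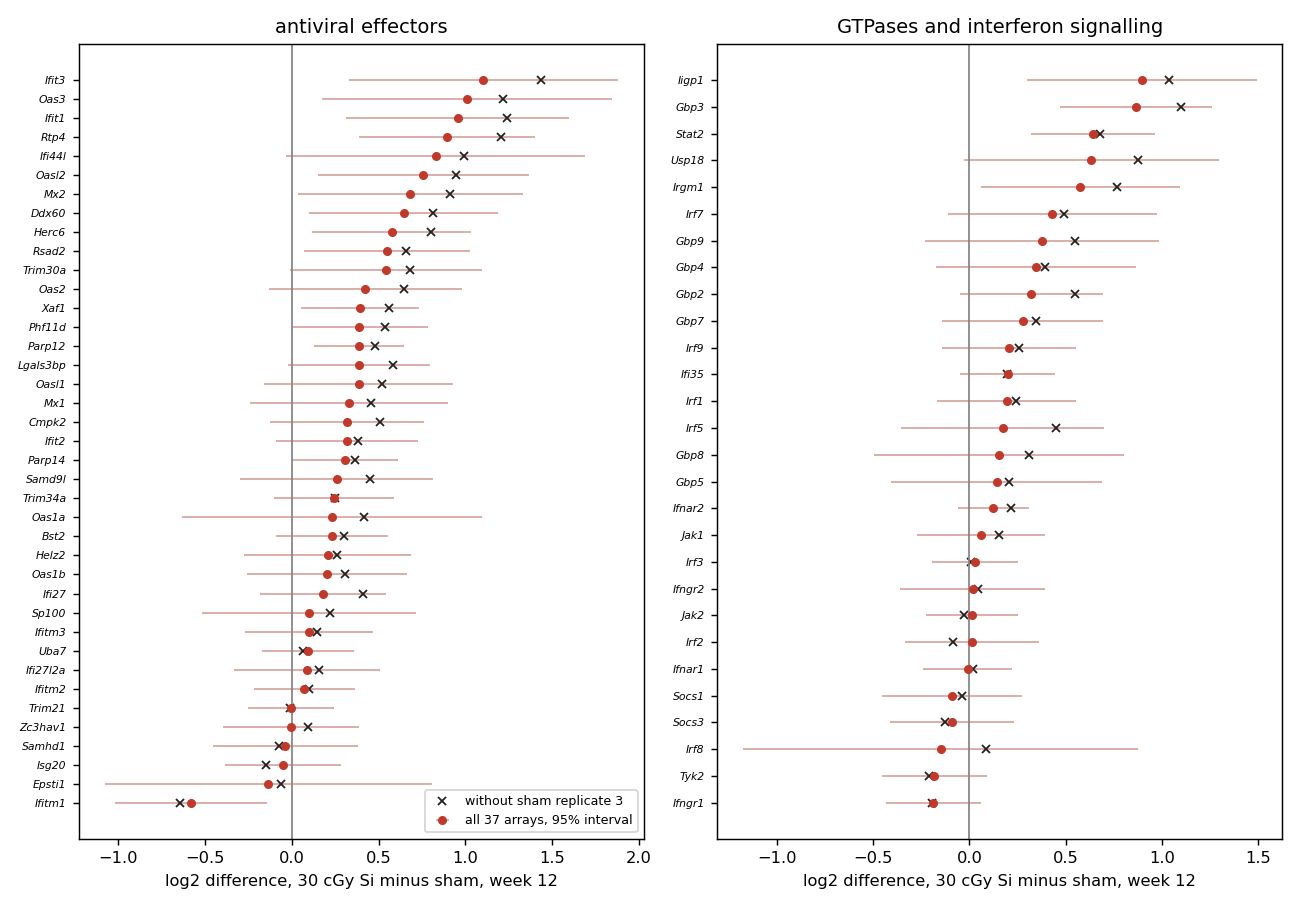
Log2 difference, 30 cGy Si minus sham at week 12, of the 39 antiviral effectors (left) and of the 9 GTPases with the 19 interferon signalling genes (right), with 95% intervals from the all-array fit (red) and the value without sham replicate 3 (cross). Ifit3 and Iigp1 lead the panels, and Ifitm1 is the antiviral gene whose interval lies below 0.

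The upstream genes of the route gave smaller values. Of 19 interferon signalling genes, 13 lay above 0, 1 was higher at an unadjusted p (Stat2) and the median was 0.03. The receptor gene Ifngr1 differed by −0.19 ± 0.12, Ifnar2 by 0.12 ± 0.09 and the factor gene Irf7 by 0.43 ± 0.26. Isg15 lay below the filter and was not tested. Of 15 sensors of foreign nucleic acid, 4 were higher and 0 lower at an unadjusted p, among them Eif2ak2, the kinase PKR (0.45 ± 0.15), and Ifih1, the receptor MDA5 (0.33 ± 0.12). Of 14 genes of antigen presentation on MHC class I, 13 lay above 0 with a median of 0.19, and the peptide loading genes Tapbp (0.28 ± 0.11) and Tap2 (0.43 ± 0.18) were higher at an unadjusted p. Of 8 interferon-induced chemokine genes, 5 lay above 0 and 3 below, with a median of 0.37. Those higher at an unadjusted p were 2, Ccl7 (0.81 ± 0.36) and Ccl2 (0.71 ± 0.33), and Ccl5 differed by −0.90 ± 0.91. That count was 0 without 30 cGy Si replicate 1 or 3 and without sham replicate 1 or 2, and 3 without sham replicate 3.

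Lymphoid genes did not lie higher with the interferon-induced ones. Of 20 T and NK cell genes tested, 2 lay above 0, with a median of −0.61 (−0.26 without sham replicate 3) and 0 higher or lower at an unadjusted p. Their list level was −0.36, −0.83 and −0.75 in 30 cGy Si glands, against −0.99, 0.28 and 0.51 in sham glands, so 1 sham gland lay below and 2 above the irradiated ones. Of 19 B cell genes, 1 lay above 0 (median −0.66). The antiviral list level was 0.56, 0.12 and 0.21 in 30 cGy Si glands, against −0.32, −0.02 and 0.20 in sham glands. The same 4 tissue covariates gave a median of 0.38 for the antiviral genes and 0.49 for the GTPases.

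The promoters of the leading members of the interferon and sterol lists are shown because these members lay higher together. Windows run from 250 bases before to 50 bases after the gene start, in the RefSeq annotation of GRCm38.p6, on the gene's strand. Matches to the core of the interferon-stimulated response element, which is GAAA, any 2 bases and GAAA on either strand, are in capitals in Gbp3 (chr3:142559794-142560093, + strand, 2 overlapping matches), Stat2 (chr10:128270248-128270547, + strand, 1 match), Ifit1 (chr19:34640639-34640938, + strand, 2 matches) and Parp12 (chr6:39118300-39118599, − strand, 0 matches).
Gbp3: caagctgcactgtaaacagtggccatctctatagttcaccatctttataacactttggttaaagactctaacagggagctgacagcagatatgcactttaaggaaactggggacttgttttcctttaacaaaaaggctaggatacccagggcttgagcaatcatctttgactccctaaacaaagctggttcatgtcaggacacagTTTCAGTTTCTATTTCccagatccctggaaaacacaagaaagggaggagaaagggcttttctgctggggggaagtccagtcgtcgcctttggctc
Stat2: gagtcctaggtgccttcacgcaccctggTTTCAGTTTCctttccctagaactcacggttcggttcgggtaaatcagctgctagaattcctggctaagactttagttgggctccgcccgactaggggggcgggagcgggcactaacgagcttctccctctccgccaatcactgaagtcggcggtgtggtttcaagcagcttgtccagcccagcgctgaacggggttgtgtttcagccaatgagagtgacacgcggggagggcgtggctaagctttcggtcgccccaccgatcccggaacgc
Ifit1: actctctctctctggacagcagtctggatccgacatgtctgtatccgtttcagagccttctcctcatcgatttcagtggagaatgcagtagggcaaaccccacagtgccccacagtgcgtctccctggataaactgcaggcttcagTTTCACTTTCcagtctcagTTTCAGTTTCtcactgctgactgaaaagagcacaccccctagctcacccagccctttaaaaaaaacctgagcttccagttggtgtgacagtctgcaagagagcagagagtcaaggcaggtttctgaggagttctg
Parp12: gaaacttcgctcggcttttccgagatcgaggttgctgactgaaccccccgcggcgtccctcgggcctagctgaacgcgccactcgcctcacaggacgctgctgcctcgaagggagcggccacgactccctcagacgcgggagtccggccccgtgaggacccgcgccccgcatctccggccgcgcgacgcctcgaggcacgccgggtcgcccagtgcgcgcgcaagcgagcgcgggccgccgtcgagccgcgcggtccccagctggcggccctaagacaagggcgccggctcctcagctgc
Of 67 tested members of the antiviral, GTPase and signalling lists, 54 had a window in the table, and 20 of these (37%) held the core, against 943 of 27025 genes in all (3.49%). Among the members higher at an unadjusted p, 8 of 12 with a window held it (66.7%). The lists were made of interferon genes, so a share above that of all genes was built in. Those 12 were picked by p from these same data, and a shared regulator was not tested. Rtp4 has no window in the table, and none is shown for Ube2l6.

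In the sterol genes, capitals mark CCAAT on either strand, the box bound by NF-Y, and TCACNCCAC on either strand, the core of a sterol regulatory element, which none of the 3 windows held. They are Cyp51 (chr5:4104648-4104947, − strand, 1 CCAAT match), Msmo1 (chr8:64733529-64733828, − strand, 3 matches) and Mvd (chr8:122443373-122443672, − strand, 2 matches).
Cyp51: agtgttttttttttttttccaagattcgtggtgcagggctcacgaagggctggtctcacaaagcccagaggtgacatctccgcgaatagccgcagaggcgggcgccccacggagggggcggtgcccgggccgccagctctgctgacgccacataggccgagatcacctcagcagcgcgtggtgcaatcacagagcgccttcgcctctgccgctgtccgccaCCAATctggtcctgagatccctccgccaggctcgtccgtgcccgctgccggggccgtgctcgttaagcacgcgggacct
Msmo1: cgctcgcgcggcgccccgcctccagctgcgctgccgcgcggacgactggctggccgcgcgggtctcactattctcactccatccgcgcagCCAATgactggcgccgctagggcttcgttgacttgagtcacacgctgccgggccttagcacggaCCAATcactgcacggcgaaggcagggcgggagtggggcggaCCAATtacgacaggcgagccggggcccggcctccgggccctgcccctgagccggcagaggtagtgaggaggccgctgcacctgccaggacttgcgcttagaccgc
Mvd: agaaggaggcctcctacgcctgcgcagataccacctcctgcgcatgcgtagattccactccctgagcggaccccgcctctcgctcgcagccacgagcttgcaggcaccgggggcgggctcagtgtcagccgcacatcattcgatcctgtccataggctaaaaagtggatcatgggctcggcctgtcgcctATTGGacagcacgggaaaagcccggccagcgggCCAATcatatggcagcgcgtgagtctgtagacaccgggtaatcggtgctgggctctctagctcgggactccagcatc
CCAAT occurred in 13 of the 15 sterol synthesis windows (86.7%) and in 12 of the 19 fatty acid synthesis windows (63.2%), against 37.9% of all windows. The sterol element core occurred in 1 of the 15 (6.67%), that of Hmgcs1, against 1.22% of all windows. Among the sterol members higher at an unadjusted p, 0 of 8 with a window held it, and 7 of 8 held CCAAT (87.5%). That CCAAT share was close to the 86.7% of the whole list. The list was made of genes of 1 pathway and those 8 were picked by p from these same data. The shares are thus no independent support, and a shared regulator was not tested. Sqle has no window in the table. A match describes letters in these windows and is not a measured binding site. Only the exact patterns were searched, so variant forms of the sterol element were missed. A window without a match is therefore not shown to lack such an element.

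Other single genes stood outside the sterol, fatty acid and interferon lists, chosen for a small unadjusted p or for a large difference without overlap. Vsig2, an immunoglobulin-domain membrane protein, had log2 values of 8.86, 7.45 and 8.65 in 30 cGy Si glands, against 7.10, 7.18 and 6.69 in sham glands (difference 1.33 ± 0.37), with no overlap. Cish, an inhibitor of cytokine receptor signalling induced by STAT5, had 6.15, 6.90 and 6.41 in 30 cGy Si glands, against 5.62, 5.49 and 5.27 in sham glands (difference 1.03 ± 0.33). Lalba, a milk protein gene, had 5.51, 6.81 and 5.65 in 30 cGy Si glands, against 3.80, 4.41 and 5.36 in sham glands (difference 1.46 ± 0.75), and did not reach an unadjusted p of 0.05. In all of these the lowest irradiated gland stood above the highest sham gland. Nabp1, a single-stranded DNA binding protein, differed by 0.90 ± 0.22, and by 1.19 without sham replicate 3 (limma adjusted p = 0.0172).

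On the lower side, Zfp874b, a zinc finger gene, had the smallest unadjusted p of all, with 4.82, 4.52 and 4.86 in 30 cGy Si glands, against 5.56, 5.46 and 5.46 in sham glands (difference −0.76 ± 0.16, limma adjusted p = 0.437). Cnmd, chondromodulin, an inhibitor of vessel growth in cartilage, had 4.36, 4.02 and 3.90 in 30 cGy Si glands, against 5.59, 4.87 and 4.50 in sham glands (difference −0.89 ± 0.20, limma adjusted p = 0.437). Without sham replicate 3 the difference of Cnmd was −1.14 (limma adjusted p = 0.0172). Itga11, a collagen-binding integrin of fibroblasts, had 6.43, 5.85 and 5.95 in 30 cGy Si glands, against 6.64, 7.56 and 6.50 in sham glands (difference −0.82 ± 0.21). For each of these genes all irradiated glands stood below all sham glands.

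Glucocorticoid-induced genes lay mostly below 0. Of 21 tested, 5 lay above 0, 0 were higher and 2 lower at an unadjusted p, and 4 were lower and 1 higher with no overlap, with a median of −0.25. Of all genes, 2.84% were higher and 2.44% lower at that p, and 3.39% were lower and 3.83% higher without overlap. Tsc22d3, the glucocorticoid-induced leucine zipper, had 7.20, 7.37 and 7.22 in 30 cGy Si glands, against 7.77, 8.08 and 7.78 in sham glands (difference −0.61 ± 0.16). At week 12 its differences from the same sham arrays were −0.70 after 10 cGy Si and −0.62 after 100 cGy gamma, values that share those sham glands. The list median against those sham glands was −0.43 after 10 cGy Si, with 7 members lower at an unadjusted p. After 100 cGy gamma it was −0.25, with 5 lower. The lower values were thus not particular to 30 cGy Si. Nfkbia differed by −0.47 ± 0.18. Ribosomal protein genes had 0 of 22 members above 0, a median of −0.17 and 1 lower at an unadjusted p (Rpl11, −0.23 ± 0.11).

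The p53 target genes had no common direction. Of 29 tested, 11 lay above 0, 2 were higher and 3 lower at an unadjusted p, and the median was −0.07. At that p, 2.84% of all genes were higher and 2.44% lower. Cdkn1a, the cell cycle inhibitor p21, had 8.40, 8.36 and 8.03 in 30 cGy Si glands, against 7.42, 8.68 and 8.75 in sham glands (difference −0.02 ± 0.31). Mdm2, the p53 ubiquitin ligase, differed by 0.09 ± 0.11, Ccng1 by 0.26 ± 0.15 and Eda2r by 0.29 ± 0.21. Phlda3, an AKT inhibitor, had 9.22, 9.11 and 9.78 in 30 cGy Si glands, against 8.40, 8.18 and 9.42 in sham glands (difference 0.70 ± 0.30). The death receptor gene Fas had 5.73, 5.42 and 5.39 in 30 cGy Si glands, against 5.90, 6.22 and 6.01 in sham glands (difference −0.53 ± 0.14), while the death receptor gene Tnfrsf10b differed by 0.47 ± 0.15. Of 23 proliferation genes, 5 lay above 0 and 0 were higher or lower at an unadjusted p, and of 20 genes of DNA break repair, 13 lay above 0 with 0 higher or lower.

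The other irradiations of week 12 shared the sham arrays, so their values stand side by side. The sterol synthesis median against sham was 0.49 after 30 cGy Si, 0.21 after 10 cGy Si and 0.06 after 100 cGy gamma. The fatty acid synthesis median was 0.57, 0.17 and 0.11 in the same order. For antiviral effectors it was 0.32, 0.17 and −0.07, and for the GTPases 0.35, 0.23 and −0.03. The direct contrasts between irradiated groups do not use the sham arrays. Between 30 and 10 cGy Si, 0 genes passed adjustment (506 at an unadjusted p, 3.84%, with 267 higher, 2.03%, and 239 lower, 1.81%, smallest limma adjusted p = 0.997). Between 30 cGy Si and 100 cGy gamma, 0 genes passed either (610 at an unadjusted p, 4.63%, with 318 higher, 2.41%, and 292 lower, 2.22%, smallest limma adjusted p = 0.503). Stat2 and Vsig2 were among the genes with the smallest p of the second contrast, at 0.73 ± 0.16 and 1.67 ± 0.37 (limma adjusted p = 0.503 for both), and Cyp51 differed by 0.98 ± 0.23 (limma adjusted p = 0.633). Against gamma, the sterol synthesis median was 0.53, with 8 members higher at an unadjusted p, and the antiviral median 0.39, with 19. The fatty acid median was 0.49, with 2 higher, and the GTPase median 0.38, with 3. Against 10 cGy Si the medians were 0.38, 0.13, 0.49 and 0.18 in that order, with 3, 3, 2 and 0 higher. In both contrasts 0 members of these lists were lower at that p.

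**Figure D4:**
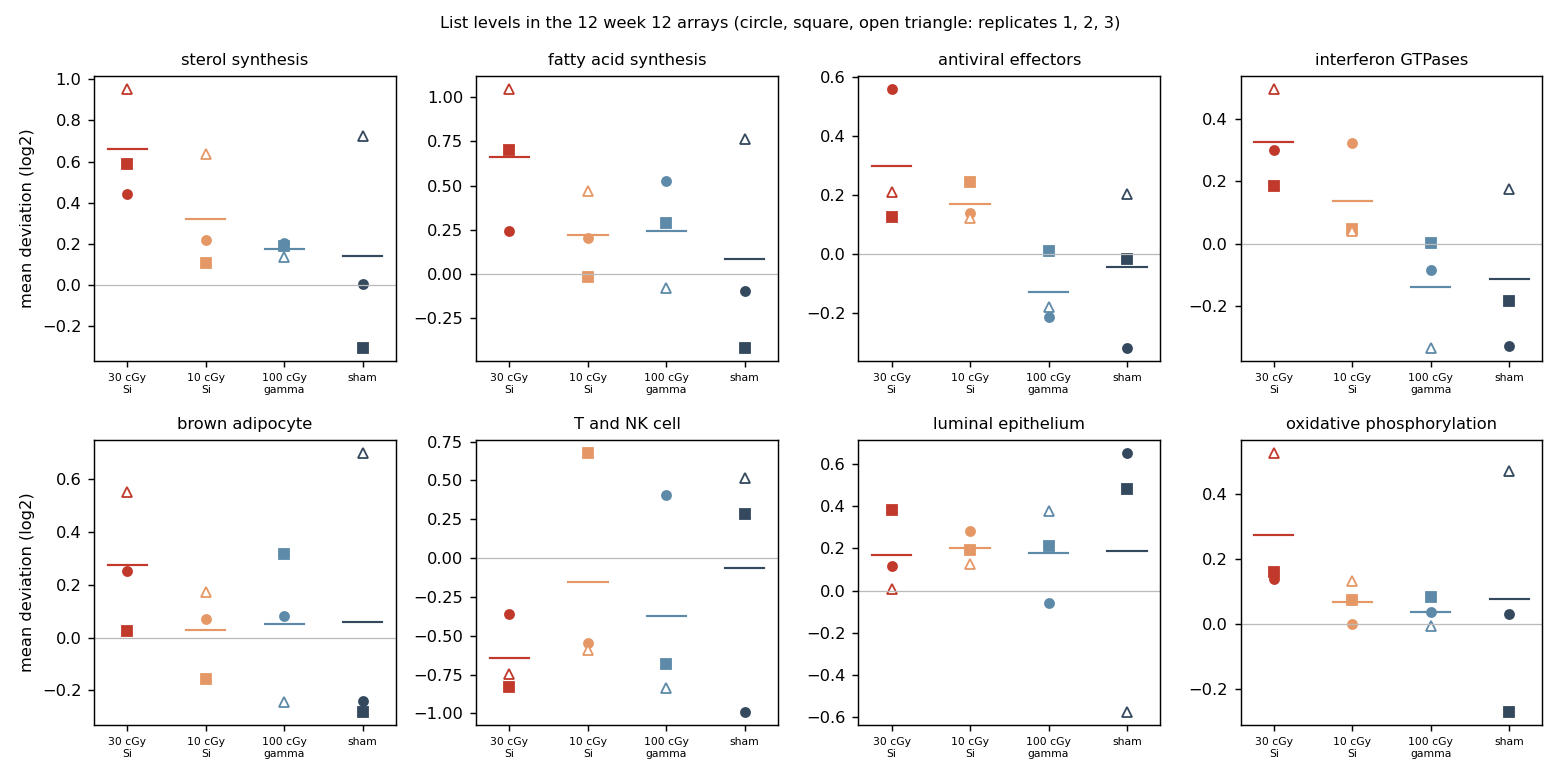
Level (average of log2 value minus the gene's 37-array mean) of 8 gene lists in the 12 arrays of week 12, with 30 cGy Si at the left, then 10 cGy Si, 100 cGy gamma and sham, and a bar at each group mean. Sham replicate 3 (open triangle) is the highest sham array in 7 lists and the lowest in luminal epithelium, at −0.57.

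The 30 cGy Si effect of week 12 was also set against that of the earlier weeks. The sterol synthesis median was 0.34 at week 1, 0.11 at week 4 and 0.49 at week 12, and the fatty acid median was 0.55, −0.09 and 0.57. The antiviral median was 0.03, 0.16 and 0.32, and the GTPase median was −0.18, 0.02 and 0.35. Cyp51 averaged 5.98 ± 0.14 at week 1, 6.50 ± 0.17 at week 4 and 7.74 ± 0.44 at week 12 after 30 cGy Si (SD, n = 3 each). In sham glands it averaged 6.16 ± 0.16, 6.20 ± 0.42 and 6.71 ± 0.58 at those weeks (SD, n = 3, 4 and 3). In the test of the difference between weeks, 0 genes passed adjustment against week 1 (498 at an unadjusted p, 3.78%, with 148 higher, 1.12%, and 350 lower, 2.66%, smallest limma adjusted p = 0.396) and 0 against week 4 (657, 4.99%, with 210 higher, 1.59%, and 447 lower, 3.39%, smallest limma adjusted p = 0.839). Itga11 had the smallest p against week 1 (−1.39 ± 0.30, limma adjusted p = 0.396), and Cyp51 differed there by 1.21 ± 0.33 (limma adjusted p = 0.999).

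**Figure D5:**
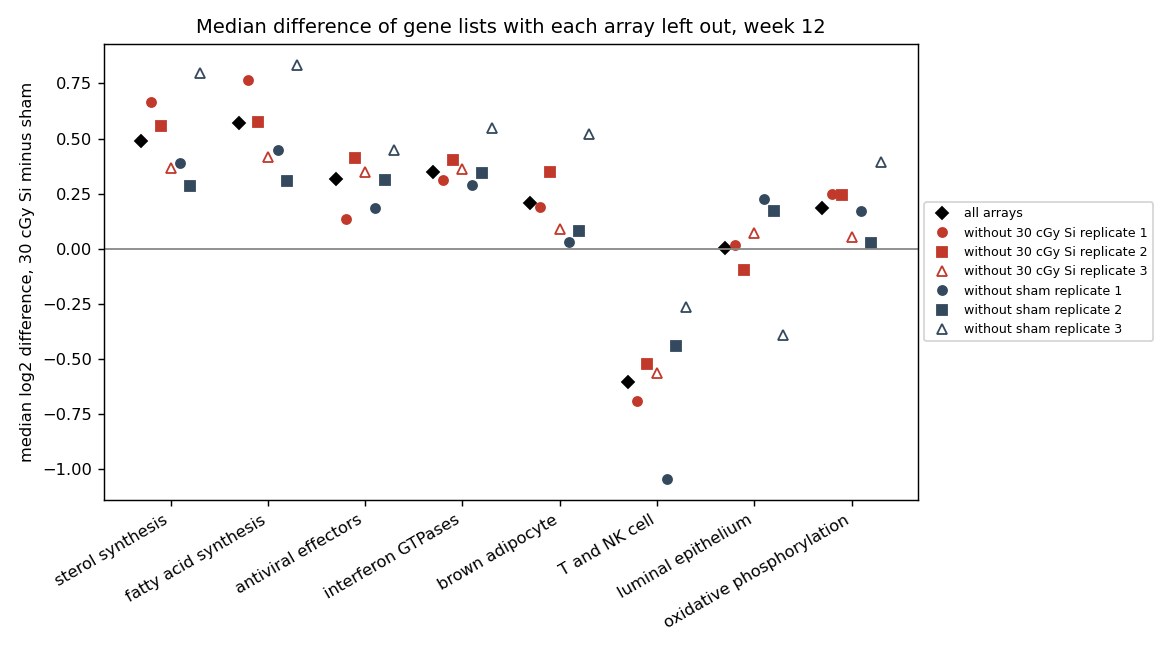
Median log2 difference, 30 cGy Si minus sham at week 12, of 8 gene lists with all arrays (black diamond) and with each of the 6 arrays left out. The sterol synthesis, fatty acid synthesis, antiviral and GTPase medians stay above 0 in all 7 fits and the T and NK cell median below 0, while the luminal epithelium median is −0.39 without sham replicate 3.

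The sterol synthesis members higher at an unadjusted p numbered from 2, without sham replicate 2 or without 30 cGy Si replicate 3, to 14, without sham replicate 3. For fatty acid synthesis they numbered from 0, without 30 cGy Si replicate 3, to 15, without sham replicate 3. For antiviral effectors they numbered from 3, without 30 cGy Si replicate 1 or sham replicate 1, to 19, without sham replicate 3.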

How the data were processed

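Each sample's mammary total RNA (250 ng) went onto 1 Affymetrix array. The authors deposited log2 values, for which the submitters' processing notes name RMA and the oligo package. Their versions and the genome build are not given in the sources used here. RMA normalises between arrays, so a shift shared by most genes would not be seen. Of 35556 probe sets, 21218 had 1 gene symbol in the platform annotation. The probe set with the highest mean stood for a gene (18820 genes), and genes above the 30th percentile of the mean (log2 4.04) were tested (13174). A limma 3.58.1 model (R 4.3.3) with a mean for each of 12 groups was fitted to all 37 arrays, two-sided, with Benjamini-Hochberg adjustment over all genes tested, and tested on simulated data. The number of arrays limits the precision. Of 1014 entries in 49 gene lists, 839 were tested, and no set test was run. Members, lists and alternatives were chosen with earlier results of these data known. Genes named are those with the smallest unadjusted p, the largest differences without overlap, up to 6 members of each list by p (any member for sterol synthesis and the interferon lists), defining cell markers, and Cdkn1a, Mdm2, Ccng1, Phlda3 and Eda2r. Acly, Scd1, Fads2 and Fasn were named after their values were seen. Alternatives were other filters, probe set means, quantile normalization, eBayes settings, array weights, a replicate block, fewer arrays, tissue covariates and leaving out each array. Promoter windows came from RefSeq (GRCm38.p6).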

Additional observations from a re-analysis of the deposited data

Results flagged for a closer look

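In 5 cases every 30 cGy Si array lay on one side of its week's sham mean at week 12 and on the other side at an earlier week. These differences between weeks were not tested as list levels. Each list whose median was recomputed under the alternatives was screened at weeks 1 and 4, and only these cases met the rule. The rule uses the sham mean and ignores the spread of the sham arrays. The MHC class I list level differed by 0.324 between the week 12 effect (0.188) and the week 1 effect (−0.136). The ribosomal protein list level differed by −0.268 between the week 12 effect (−0.152) and the week 4 effect (0.116). The glucocorticoid list level differed by −0.420 from week 1 and by −0.373 from week 4, with effects of −0.200 at week 12, 0.220 at week 1 and 0.172 at week 4. At week 12 the median of that list was also below sham after 10 cGy Si and 100 cGy gamma. The triglyceride synthesis and storage list level differed by 0.380 between the week 12 effect (0.242) and the week 4 effect (−0.138). At week 12 the sham arrays of that list ran from −0.257 to 0.347, overlapping the 30 cGy Si arrays (0.055 to 0.431).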

How the results depend on the processing

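Of the counts recomputed under the alternatives, 127 stayed within 1.5 times their value and 42 did not. Of the list medians, 239 moved by less than the list's own spread between arrays within groups, a wide margin for B cell (0.993) and brown adipocyte genes (0.434). With tissue covariates, the B cell median went from −0.66 to 0.019 and the brown adipocyte median from 0.21 to −0.041, both within that margin. The T and NK cell median became −0.0029, outside it. The covariates include the T and NK cell and brown adipocyte lists. The eBayes settings, the replicate block and the fits on fewer arrays could not move a median, since the differences between group means stay the same. With only the 6 arrays in the fit, the spread came from them alone. That gave 179 genes higher and 188 lower at an unadjusted p, with 2 sterol and 1 fatty acid synthesis members higher. Only the week 12 arrays gave 4 and 4. Array weights gave 11 fatty acid members, and tissue covariates 5 GTPases. All probe sets, an alternative chosen after seeing the data, gave 1032 probe sets higher and 803 lower. Those are counts out of every probe set of the array, far more than the genes tested. They therefore cannot be set directly beside the gene counts and do not mean that more genes differed. The calls ranged from 0 to 31 when each array was left out, 31 of them without sham replicate 3. In those fits 173 to 1088 genes were higher and 156 to 908 lower. Members higher ranged from 2 to 14 (sterol), 0 to 15 (fatty acid), 3 to 19 (antiviral) and 2 to 4 (GTPases). Against 10 cGy Si, 149 to 355 genes were higher and 139 to 562 lower. Against gamma, 159 to 386 were higher and 159 to 535 lower. For week 12 minus week 1, 139 to 242 were higher and 244 to 530 lower. For week 12 minus week 4, 120 to 660 were higher and 261 to 1029 lower.

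Sign changed for 4 named genes, and the cause was not tested. Cdkn1a was 0.093 with array weights and ran from −0.45 to 0.21 with single arrays left out, at 0.097 without 30 cGy Si replicate 3 and 0.18 when sham replicate 2 was dropped. Krt8 was −0.059 with array weights and ran from −0.38 to 0.37. Scd1 was −0.017 with tissue covariates and ran from −0.017 to 0.12, with −0.0077 when sham replicate 2 was dropped. Cd79a was 0.51 with tissue covariates and ran from −2.44 to 0.41, with 0.22 when sham replicate 2 was dropped.

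Same-numbered arrays of the 2 groups had deviations correlated at −0.133, 0.162 and 0.365. For arrays of unlike number the correlations ran from −0.389 to 0.255. So few values cannot show whether the numbers mark pairs or a shared batch. The main fit did not use them as pairs. With the replicate number as a block, 412 genes were higher and 314 lower at an unadjusted p and 0 passed adjustment.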
